A study of Mus musculus with 4 samples.

Results

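The step of glycolysis at fructose 6-phosphate is controlled by 10 genes that were followed here in mouse tibialis anterior muscle with both copies, or 1 copy, of the neurofibromin gene Nf1 floxed for deletion. They are the phosphofructokinase genes Pfkm, Pfkl and Pfkp, the bifunctional kinase and bisphosphatase genes Pfkfb1 to Pfkfb4, the fructose bisphosphatase genes Fbp1 and Fbp2, and Tigar. The members were chosen by name, and each of the 10 has 1 row in the deposited tables, out of 32868 gene names. RNA was taken at postnatal day 21 from C57BL/6 mice in 2 groups of 2 libraries. The Het group has the genotype Nf1flox/+/Myf5+ and the Nf1-KO group Nf1flox/flox/Myf5+. Both groups therefore carry the Myf5+ allele and at least 1 floxed Nf1 allele, and no group with 2 unfloxed alleles was analysed here. Myf5 is active in muscle precursors. In crosses of this kind a Myf5 allele usually supplies the Cre recombinase, which the labels do not spell out, and cells of the muscle from other lineages then keep Nf1. The labels do not say whether the libraries of a group came from separate animals, so the p-values measure the spread between these libraries, which may be technical.

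Phosphofructokinase adds a second phosphate to fructose 6-phosphate and commits the sugar to glycolysis, and fructose bisphosphatase removes that phosphate again. Both enzymes answer to fructose 2,6-bisphosphate, a signalling sugar that activates the kinase and inhibits the bisphosphatase. The Pfkfb proteins both make and destroy this signal with separate domains of 1 polypeptide, and Tigar, a target of p53, carries a related bisphosphatase domain. Skeletal muscle runs mainly on the Pfkm and Fbp2 enzymes, and loss of PFKM in people causes Tarui disease, a muscle glycogen storage disease.

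The values were read as RPKM, reads per kilobase of gene and per sequencing depth, a unit inferred from the values. As a check of the gene lengths behind them, the mean normalized count of the authors' deposited table was divided by RPKM and estimated depth. For Pfkm, Pfkl, Pfkfb4, Fbp2 and Tigar the length this implies was 0.94 to 1.05 times that of the longest GENCODE transcript. It was 2.11 times for Pfkfb1, 2.39 times for Pfkfb2, 0.356 times for Pfkfb3 and 0.523 times for Pfkp. Levels of these last 4 genes are therefore not shown to be comparable with those of other genes. A length that is the same in every library cancels from a gene's own ratio of RPKM between the groups. Whether the RPKM and the authors' counts rest on the same exons and reads is not given. Estimated depth ran from 36500000 to 58200000 reads per library, and replicates of 4826 genes of at least 5 RPKM had a median coefficient of variation of 2.03% (Het) and 1.91% (Nf1-KO). Nf1 itself was 1.09 and 1.01 RPKM in Het and 0.89 and 0.85 RPKM in Nf1-KO (log2 fold change -0.18, limma adjusted p 0.0407; -0.38 in the authors' deposited table), so Nf1 RNA was lower but still present in the muscle labelled Nf1-KO. Of the 7 myofibre genes listed for the tissue, all but Myh7 were abundant in every library. Their summed level was 43548.4 and 43786.7 RPKM in Het and 36790.3 and 36357.7 RPKM in Nf1-KO, while Myh7 was 1.36 to 1.66 RPKM. Of 10690 genes tested, 50.3% passed at a limma adjusted p under 0.05, with 25.4% lower and 24.9% higher in Nf1-KO, so passing the test is common in this comparison. With values as deposited and not scaled between libraries, those shares were 17.6% and 35.2%.

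Among the 9 members with enough signal to be tested, 6 fell in Nf1-KO and 0 rose. Pfkfb1 fell to 0.284 of its mean Het level in RPKM, Pfkfb4 to 0.463 and Pfkm to 0.623, while Pfkl, Pfkfb2 and Tigar stood at 0.764, 0.801 and 0.807. Pfkfb3, Fbp2 and Pfkp did not pass. Fbp1 was too low to test. Of all tested genes 50.3% passed and 25.4% were lower, and 0.935% of tested genes passed with a log2 fold change under -1, as 2 of the 9 members did. The median log2 fold change was -0.33 over the 9 members and 0.00 over all tested genes. The authors' deposited table called the same 6 of 9 listed members lower and 0 higher, where 16.6% and 15% of its 13985 genes were lower and higher.

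To show regions in which transcription of members begins, the windows around 4 annotated start sites are printed here (250 bases before and 50 after the start, from RefSeq on GRCm38.p6). They belong to Pfkfb1 and Pfkfb4, the members with the largest falls, and to Pfkfb3 and Fbp2, which did not pass. Pfkp, which also did not pass, is not printed. Capitals mark the MEF2 motif of muscle genes, the letters TATAAA of the TATA box, the muscle E-box CAGCTG, the E-box CACGTG, and the hypoxia response core, which is ACGTG or its variant GCGTG. Each was searched on both strands. CACGTG holds the hypoxia core on both strands. Pfkfb1 has 4 annotated starts, and the one shown, on the forward strand of chromosome X at chrX:150589666-150589965, was chosen because it is the only member window with a MEF2 motif. Pfkfb4 is at chr9:108991652-108991951 on the forward strand, Pfkfb3 at chr2:11502041-11502340 on the reverse strand, at 1 of 2 annotated starts, and Fbp2 at chr13:62858351-62858650 on the reverse strand.
Pfkfb1: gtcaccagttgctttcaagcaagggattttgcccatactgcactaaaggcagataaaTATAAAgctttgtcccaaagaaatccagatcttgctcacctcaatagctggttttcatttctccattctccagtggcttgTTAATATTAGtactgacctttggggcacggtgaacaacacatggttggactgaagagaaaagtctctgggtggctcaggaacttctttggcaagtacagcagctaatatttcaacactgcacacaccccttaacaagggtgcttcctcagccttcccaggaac
Pfkfb4: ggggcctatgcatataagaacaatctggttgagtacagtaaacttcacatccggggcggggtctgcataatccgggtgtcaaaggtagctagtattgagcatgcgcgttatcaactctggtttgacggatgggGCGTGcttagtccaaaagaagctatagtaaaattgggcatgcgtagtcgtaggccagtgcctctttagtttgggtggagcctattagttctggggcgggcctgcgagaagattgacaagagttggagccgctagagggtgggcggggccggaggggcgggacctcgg
Pfkfb3: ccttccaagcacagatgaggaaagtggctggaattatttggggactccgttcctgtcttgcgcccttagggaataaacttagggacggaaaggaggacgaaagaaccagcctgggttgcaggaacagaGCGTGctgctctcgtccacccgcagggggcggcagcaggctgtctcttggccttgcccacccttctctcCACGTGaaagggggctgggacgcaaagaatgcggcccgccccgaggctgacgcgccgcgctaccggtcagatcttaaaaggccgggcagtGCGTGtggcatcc
Fbp2: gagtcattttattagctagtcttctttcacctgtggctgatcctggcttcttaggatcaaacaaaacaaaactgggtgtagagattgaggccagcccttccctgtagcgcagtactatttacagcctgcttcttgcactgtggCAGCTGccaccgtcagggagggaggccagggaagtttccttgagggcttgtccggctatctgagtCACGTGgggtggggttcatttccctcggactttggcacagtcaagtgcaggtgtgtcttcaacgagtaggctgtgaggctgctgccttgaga
The MEF2 motif was present in 1 of the 19 member windows, against 3.19% of 32851 promoter windows. That was the Pfkfb1 window shown, which was chosen for it, so its presence there was fixed by the choice. TATAAA was present in 1 of 19, the same window, against 13.6% of all windows. This TATAAA lies nearer the upstream end of the window than the start, so it is not read here as a TATA box. The hypoxia core was present in 13 of the 19 windows annotated for the members, belonging to 8 genes, against 43.8% of all windows. Some windows of the same gene overlap, and in Pfkm the same match is counted in overlapping windows, so the 19 are not all separate. CACGTG was present in 4 of 19 (in Pfkm, Pfkfb2, Pfkfb3 and Fbp2), against 7.15% of all windows, and CAGCTG in 3 of 19 (in Pfkfb1, Pfkfb2 and Fbp2), against 16.3%. The Pfkfb3 window shown held the hypoxia core 4 times, counted over both strands. The other Pfkfb3 window, not printed, held it 1 time and held no CACGTG. In the Pfkfb4 window the hypoxia core was found 1 time, and in the Pfkp window, not printed, 4 times. A match is a description of the letters, and the gene-level values do not tell which of the starts of Pfkfb1 or Pfkfb3 was used.

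**Figure D1:**
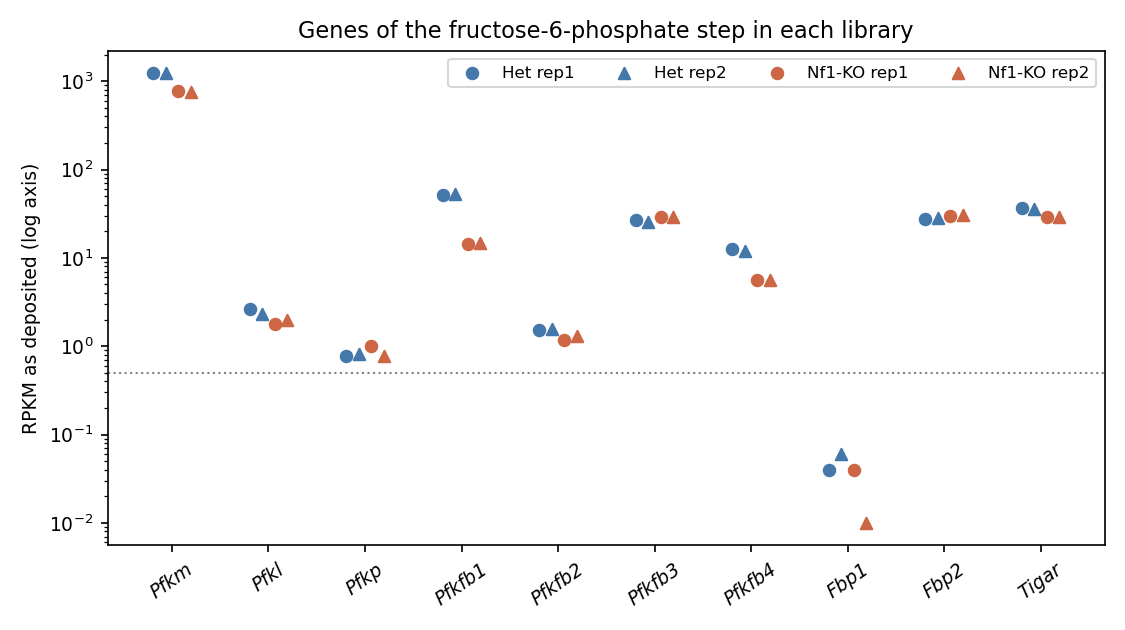
RPKM as deposited on a log axis for the 10 genes in each of the 4 libraries (blue for Het, orange for Nf1-KO; circles for replicate 1, triangles for replicate 2); the dotted line is the 0.5 RPKM limit of the test. Pfkm lies far above the others at 759 to 1230 RPKM, Fbp1 lies far below the limit, and the largest gap between the groups above that limit is in Pfkfb1.

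Phosphofructokinase RNA was almost wholly Pfkm, the muscle isoform, and its level fell in Nf1-KO. In Het, Pfkm (chromosome 15, 98092589 to 98132451 in GRCm38) was read at 1229.94 and 1227.85 RPKM, against 771.08 and 759.19 RPKM in Nf1-KO. Both Nf1-KO libraries were below both Het libraries, which holds for 27.4% of tested genes in the values as deposited. The replicates of each group were close together. On the log2(RPKM + 1) scale, used for every fold change here except the authors' and shrinking the changes of genes near or under 1 RPKM, the change was -0.78 with a 95% interval of -0.82 to -0.74 (limma adjusted p 8.3e-07). Pfkm was the 40th most abundant name in the tables by mean RPKM, far above every other member. Exons of Pfkm overlap those of Senp1 on the opposite strand and of the predicted gene Gm26513, but Senp1 was at most 1.02 RPKM.

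Pfkl, the liver isoform that many tissues express, was 2.65 and 2.30 RPKM in Het and 1.79 and 1.99 RPKM in Nf1-KO. Its 4 values did not overlap between the groups. The fall was -0.33 in log2, with a 95% interval of -0.50 to -0.16 (limma adjusted p 0.0097). It was -0.46 with a pseudocount of 0.1 and -0.49 in the authors' deposited table. With no filter on low values, where more genes were tested, it no longer passed (limma adjusted p 0.0562). Pfkp, the platelet isoform, was 0.77 and 0.82 RPKM in Het and 1.00 and 0.78 RPKM in Nf1-KO, and the groups overlapped. Its log2 fold change was 0.03 with a 95% interval of -0.15 to 0.21 (limma adjusted p 0.765), and without replicate 1 of Nf1-KO it turned to -0.05. In the authors' deposited table Pfkp rested on a mean of 184.3 normalized counts, the fewest of the 9 listed members, and Pfkl on 386.9.

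The make-up of the phosphofructokinase RNA moved little. Pfkm made up 99.72% and 99.75% of the summed RPKM of the 3 genes in the Het libraries, and 99.64% in both of the others. The summed level went from 1232.2 ± 1.69 to 767.9 ± 8.42 RPKM (SD, n = 2). The share of Pfkp went from 0.0645% ± 0.0030 to 0.116% ± 0.019 (SD, n = 2) without a change in its own level that passed the test, and its size rests on the uncertain length of Pfkp. As for every share and ratio given here, an exact two-sided permutation test over the 2 and 2 libraries cannot reach the 0.05 threshold, and its p was 0.33, the smallest possible, in each case.

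Of the Pfkfb genes 3 fell, by very different amounts. Pfkfb1, the isoform of liver and skeletal muscle (chromosome X, 150588229 to 150643878 in GRCm38), was 51.38 and 52.36 RPKM in Het and 14.52 and 14.91 RPKM in Nf1-KO. The groups were far apart, and the difference was many times the spread between replicates. In log2 the change was -1.84 with a 95% interval of -1.91 to -1.77 (limma adjusted p 4e-07), the 16th largest fall on this scale among the 10690 tested genes. For Pfkfb1, a value of -1.92 (SE 0.035) stands in the authors' deposited table, on a mean of 9086.6 normalized counts. Exons of Pfkfb1 overlap those of Apex2 on the opposite strand. Reads of the 2 cannot be told apart if strand was not used, which is not given in the sources used here. The same limit holds for Pfkp with Pitrm1, Pfkfb2 with Yod1 and Tigar with Platr31, whose exons also overlap on opposite strands. Since Pfkfb1 is X-linked, the sex of the animals would matter, and the labels do not give it. Xist was listed at 0 in all 4 libraries, while the Y-linked gene Eif2s3y was 13.11 and 13.65 RPKM in Het and 24.66 and 23.45 RPKM in Nf1-KO. Uty, also Y-linked, was 1.44 and 1.58 against 1.85 and 1.98 RPKM and did not pass (limma adjusted p 0.0708), and Kdm5d was at most 0.30 RPKM and was not tested. The part of sex in the result was not tested.

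Pfkfb4, an isoform first described in testis and induced by hypoxia in many cells (chromosome 9, 108991778 to 109032228), was 12.44 and 11.93 RPKM in Het and 5.67 and 5.60 RPKM in Nf1-KO. Again both Nf1-KO libraries lay well below both Het libraries. In log2 it changed by -1.07, with a 95% interval of -1.17 to -0.98 (limma adjusted p 6e-06), the 81st largest fall. The interval does not reach that of Pfkfb1, so the fall of Pfkfb4 was the smaller of these 2. Pfkfb2, the heart isoform, was low, at 1.53 and 1.58 RPKM in Het and 1.17 and 1.32 RPKM in Nf1-KO. The estimate was -0.24 with a 95% interval of -0.39 to -0.10 (limma adjusted p 0.0165). With a pseudocount of 0.1 it was -0.39, and it is -0.42 in the authors' deposited table. The call for Pfkfb2 was lost with no filter on low values (limma adjusted p 0.0569), without replicate 2 of Het (-0.23, limma adjusted p 0.0564) and without replicate 1 of Nf1-KO (-0.19, limma adjusted p 0.0987). Of the 50-base stretches of its longest transcript, 26.1% also occur in the overlapping predicted gene Gm29427, so its value is uncertain as far as reads were split between them.

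Pfkfb3, the inducible isoform with the highest ratio of kinase to bisphosphatase activity, did not pass the test. Its level was 26.51 and 25.16 RPKM in Het and 29.12 and 29.29 RPKM in Nf1-KO. The Nf1-KO values were the higher ones without overlap, which holds for 49.8% of tested genes in the values as deposited. After scaling the values were 27.4 and 26.0 in Het and 28.2 and 28.3 in Nf1-KO. The estimate was 0.08 in log2 with a 95% interval of 0.00 to 0.16 (limma adjusted p 0.0870). It passed with values as deposited (0.17, limma adjusted p 0.0067) and just under the threshold when genes had to reach 1 RPKM everywhere (0.09, limma adjusted p 0.0497). Without replicate 2 of Het it was 0.04 (limma adjusted p 0.401), and it was 0.05 when the scaling ignored the 20 genes of highest mean (limma adjusted p 0.217). For Pfkfb3 the authors' deposited table holds 0.07 with an adjusted p of 0.434.

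**Figure D2:**
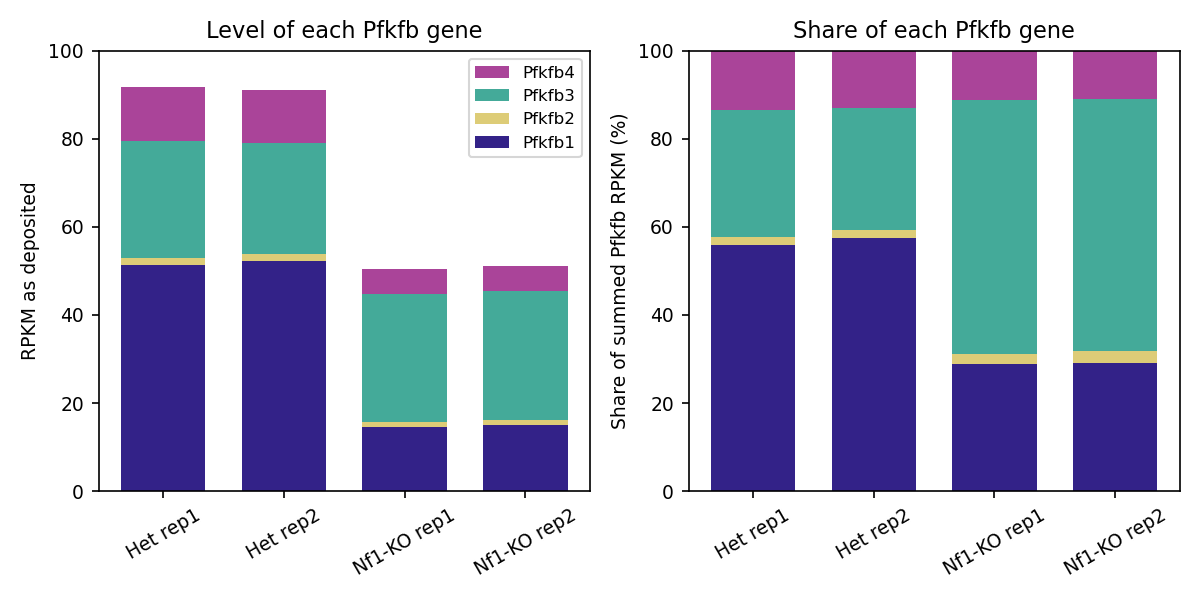
Stacked bars of the RPKM of Pfkfb1 to Pfkfb4 in each library (left) and of each gene's percentage of their sum (right), both axes from 0. The sum is 91.86 and 91.03 RPKM in Het and 50.48 and 51.12 RPKM in Nf1-KO. This sum and the relative heights of Pfkfb1, Pfkfb2 and Pfkfb3 within a bar rest on gene lengths that the authors' counts do not match.

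Adding the 4 genes, Pfkfb RNA went from 91.4 ± 0.587 to 50.8 ± 0.453 RPKM (SD, n = 2), a ratio of 0.556. The sizes of this sum and of its fall rest on the lengths of Pfkfb1, Pfkfb2 and Pfkfb3, which the authors' counts do not match. The SD does not include that uncertainty. By RPKM, Pfkfb1 held 55.93% and 57.52% of this sum in Het and 28.76% and 29.17% in Nf1-KO. Pfkfb3 held 28.86% and 27.64% in Het and 57.69% and 57.30% in Nf1-KO. The share of Pfkfb1 was thus lower and that of Pfkfb3 higher in both Nf1-KO libraries, without overlap.

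Which isoform led in Nf1-KO depended on the file used. Counts from the authors' deposited table, taken per kilobase of the longest transcript, gave Pfkfb1 80.8% in Het and 61.3% in Nf1-KO, and Pfkfb3 6.94% and 21.0%. By these counts Pfkfb1 stayed above Pfkfb3 in both groups, at 14384.8 against 2209.9 counts in Het and 3788.4 against 2323.2 counts in Nf1-KO before division by length. The 2 sources shared the direction for Pfkfb1, Pfkfb3 and Pfkfb2, whose share went from 1.70% to 2.45% by RPKM. They differed for Pfkfb4, which went from 13.3% to 11.1% by RPKM and from 9.45% to 11.7% by counts per kilobase. The table gives no value per library, so the count-based shares carry no SD.

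Among the bisphosphatases, only the muscle isoform could be tested, and it did not pass. Fbp2 (chromosome 13, 62836877 to 62858422) was 27.49 and 28.12 RPKM in Het and 29.62 and 30.30 RPKM in Nf1-KO as deposited. After scaling the groups overlapped, at 28.4 and 29.1 in Het and 28.7 and 29.3 in Nf1-KO. The estimate for Fbp2 was 0.01 in log2 with a 95% interval of -0.06 to 0.08 (limma adjusted p 0.735), an interval that does not hold the estimates of the 6 members that fell. Its sign was not settled by the scaling: it was -0.01 when the scaling ignored the 20 genes of highest mean, and 0.10, past the threshold, with values as deposited (limma adjusted p 0.0236). The entry for Fbp2 in the authors' deposited table is 0.00 in log2.

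Fbp1, the liver and kidney isoform (chromosome 13, 62864753 to 62888282, next to Fbp2), was 0.04 and 0.06 RPKM in Het and 0.04 and 0.01 RPKM in Nf1-KO. With a transcript of 1479 bases and the estimated depths, these values stand for about 2.2, 5.2, 2.8 and 0.76 reads. A difference was not detectable at this depth. RefSeq lists the symbol of each bisphosphatase gene as a synonym of the other, and which convention the authors' annotation used is not given in the sources used here. The hepatocyte genes Alb, Apoa1, Ttr, Serpina1a and Fgb were at most 0.03 RPKM in every library.

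Tigar, whose product lowers fructose 2,6-bisphosphate (chromosome 6, 127085116 to 127109557), was 36.61 and 35.43 RPKM in Het and 29.37 and 28.75 RPKM in Nf1-KO. Both Nf1-KO libraries were below both Het libraries, with a gap several times that between replicates. In log2 this was -0.39 with a 95% interval of -0.46 to -0.32 (limma adjusted p 0.00011), a smaller fall than those of Pfkm, Pfkfb4 and Pfkfb1, whose intervals do not reach it. Trp53, which encodes the p53 regulator of Tigar, was 0.10 to 0.18 RPKM and was not tested, and Mdm2, another p53 target, had a log2 fold change of -0.08 that did not pass (limma adjusted p 0.256).

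**Figure D3:**
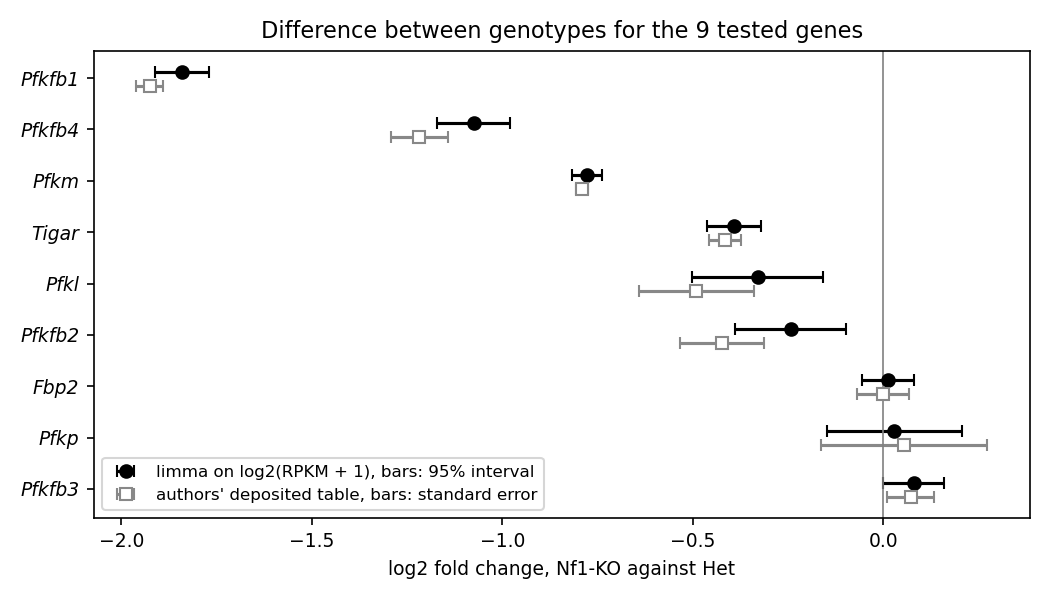
Log2 fold change of Nf1-KO against Het for the 9 tested genes, with black circles for limma on log2(RPKM + 1) with 95% intervals and open squares for the authors' deposited table with standard errors. Pfkfb1, Pfkfb4, Pfkm, Tigar, Pfkl and Pfkfb2 lie below 0 in both, and Fbp2, Pfkp and Pfkfb3 lie near 0.

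The balance of Fbp2 to Pfkm RNA differed between the groups. For every 100 RPKM of Pfkm there were 2.24 and 2.29 RPKM of Fbp2 in Het and 3.84 and 3.99 RPKM in Nf1-KO, a ratio of 1.73 between the group means. Summed Pfkfb RNA per 100 RPKM of phosphofructokinase went from 7.42 ± 0.0375 to 6.62 ± 0.132 (SD, n = 2), a ratio of 0.892 between the group means. Tigar per 100 RPKM of summed Pfkfb went from 39.4 ± 0.660 to 57.2 ± 1.37, although Tigar itself fell. In each of these 3 ratios the libraries of the groups did not overlap. With the counts of the authors' deposited table per kilobase, the ratio between the groups was 1.73 for Fbp2 to Pfkm, 0.60 for Pfkfb to phosphofructokinase and 2.16 for Tigar to Pfkfb, so the size of the latter pair depends on the gene lengths. They compare RNA and say nothing of enzyme amounts or activity.

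**Figure D4:**
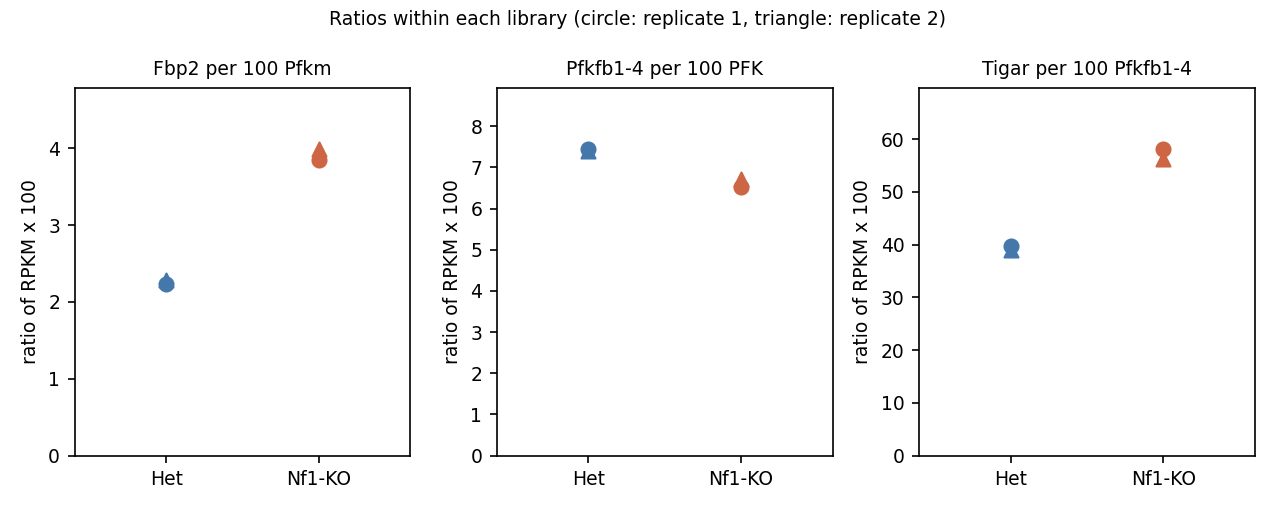
Ratios of RPKM within each library, times 100, with axes from 0: Fbp2 to Pfkm, summed Pfkfb1 to Pfkfb4 to summed phosphofructokinase, and Tigar to summed Pfkfb1 to Pfkfb4. Fbp2 per 100 Pfkm is 2.24 and 2.29 in Het and 3.84 and 3.99 in Nf1-KO, and the other ratios also separate the groups.

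In order of RPKM, Het muscle ran Pfkm, Pfkfb1, Tigar, Fbp2, Pfkfb3, Pfkfb4, Pfkl, Pfkfb2, Pfkp and Fbp1, with no overlap between neighbours in the 2 libraries. By RPKM in Nf1-KO muscle, the order began Pfkm, Fbp2, Pfkfb3, Tigar and Pfkfb1. There Pfkfb3 and Tigar overlapped, at 29.2 and 29.1 RPKM on average. The places of Pfkfb1, Pfkfb2, Pfkfb3 and Pfkp in this order are uncertain because of the mismatch in length. Among the genes whose lengths fit, the order was Pfkm, Tigar, Fbp2, Pfkfb4 and Pfkl in Het, and Pfkm, Fbp2, Tigar, Pfkfb4 and Pfkl in Nf1-KO by RPKM. By counts per kilobase Tigar and Fbp2 were nearly level in Nf1-KO, at 1329.5 and 1308.3.

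The genes whose values over the 4 libraries lay closest to those of the 2 members highest in RPKM were found among 3006 names of at least 10 RPKM, by the Euclidean distance of centred log2 values. For Pfkm these were Srebf1 (distance 0.0054), Map2k6 (0.0194) and Tpm1 (0.0352), with log2 fold changes of -0.78, -0.76 and -0.81. For Pfkfb1 they were Csrp3 (0.0764), Nmrk2 (0.0922) and Sbk2 (0.123), with log2 fold changes of -1.80, -1.93 and -1.91. With 4 libraries in 2 groups this likeness is mostly one of fold change.

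The enzymes around the step give the members their setting. Of the genes before fructose 6-phosphate, 5 of 6 were tested, with 1 lower, 1 higher and a median log2 fold change of -0.03. Gpi1, the isomerase that makes fructose 6-phosphate, had a log2 fold change of -0.03 (limma adjusted p 0.246) and Hk2, the main muscle hexokinase, -0.05 (limma adjusted p 0.118), and neither passed. Both were higher in Nf1-KO in the values as deposited. The phosphoglucomutase gene Pgm2 fell by 0.57 on the log2 scale, and Pgm1, at 0.64 and 0.70 RPKM in Het and 0.93 and 0.97 RPKM in Nf1-KO, rose by 0.18 (limma adjusted p 0.0384). Of the genes after the step, 10 of 14 were tested, with 8 lower, 2 higher and a median of -0.52. Pkm, pyruvate kinase, fell by 0.84, and Aldoa, the aldolase that takes the product of phosphofructokinase, fell by 0.53 on the log2 scale, while Ldhb, the heart-type lactate dehydrogenase subunit, rose by 2.03.

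Other routes also use fructose 6-phosphate. Of 8 pentose phosphate genes, 2 were higher, 1 lower and 5 did not pass, with a median log2 fold change of 0.05. Pgls, the lactonase, rose by 0.39 and Rpia, the ribose phosphate isomerase, fell by 0.31 on the log2 scale. Of 7 hexosamine pathway genes, 3 were lower and 4 did not pass (median -0.15), and Gfpt1, which draws fructose 6-phosphate into that pathway, fell by 0.49 and Uap1 by 0.21 on the log2 scale. Pgm3, a low gene at 0.52 and 0.50 RPKM in Het and 0.35 and 0.35 RPKM in Nf1-KO, changed by -0.19 on this scale and by -0.64 in the authors' deposited table. Among the other gluconeogenic genes 4 of 6 were tested, with 2 lower and 1 higher. Slc37a4, the glucose 6-phosphate transporter, fell by 1.19 and G6pc3, a phosphatase gene, by 0.48 on the log2 scale. G6pc was listed at 0 in all 4 libraries.

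**Figure D5:**
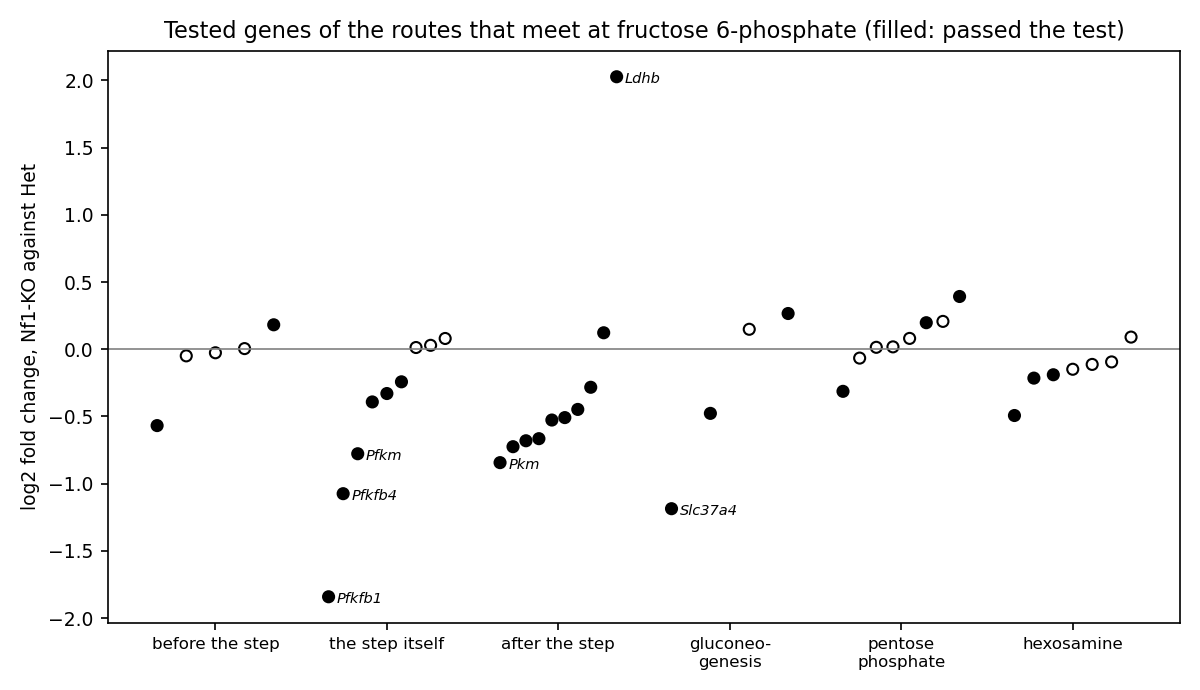
Log2 fold change of Nf1-KO against Het for the tested genes listed for the step and for 5 neighbouring routes, each point 1 gene, filled where the limma adjusted p was under 0.05, with names beside changes of over 0.75. Pfkfb1 at -1.84 is the lowest point and Ldhb at 2.03 the highest.

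A list of kinases, transcription factors and Mdm2 was taken as regulators of the members. Of its 11 tested genes, 4 were higher and 2 lower (median log2 fold change 0.11), where 24.9% and 25.4% of all tested genes were higher and lower. Hif1a, which encodes the hypoxia-induced activator of Pfkfb3 and Pfkfb4 in many cells, went from 2.46 and 2.78 RPKM in Het to 3.84 and 4.23 RPKM in Nf1-KO, a log2 fold change of 0.40 (limma adjusted p 0.0034). Epas1 and Arnt, its relative and its partner, rose by 0.26 and 0.18 on the log2 scale. Prkaa2, the muscle catalytic subunit of the energy sensor AMPK, which phosphorylates Pfkfb proteins, went from 48.91 and 48.96 to 41.39 and 41.56 RPKM, a log2 fold change of -0.33 (limma adjusted p 9e-05). Akt2, an insulin-activated kinase, rose by 0.15, and Mlxip, a glucose-sensing transcription factor, fell by 0.33 on the log2 scale.

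Fibre types and other cell types also differed between these libraries. In bulk muscle, fewer cells of a type and less RNA per cell cannot be told apart. Myh4, the myosin of the fastest fibres, was 6766.78 and 7014.79 RPKM in Het and 3508.18 and 3427.52 RPKM in Nf1-KO (log2 fold change -1.08), while Myh2 of the fast oxidative fibres rose by 0.77 on the log2 scale. All 5 tested immune genes of 8 were higher, with a summed level of 13.3 and 12.8 RPKM in Het and 34.8 and 34.7 RPKM in Nf1-KO, and the immune gene Adgre1 was listed at 0 throughout. All 6 Schwann cell genes were higher (summed 15.1 and 15.5 against 34.9 and 33.4 RPKM), as were all 5 fibroblast genes (86.7 and 84.4 against 128 and 129 RPKM). Endothelial genes, from cells in which Pfkfb3 is well known, had 3 of 6 higher and 2 lower. Their sums as deposited, before scaling, were 82.7 and 83.0 against 90.2 and 88.7 RPKM. After scaling their median log2 fold change was 0.04. Adipocyte genes went both ways: of 3 tested, Fabp4 and Cidec were higher, and Adipoq, with a log2 fold change of -0.19, did not pass. Plin1 and Lep were too low to test, and Lep was 0.21 and 0.22 RPKM in Het and 0.03 and 0.05 RPKM in Nf1-KO. Satellite cell genes had 1 of 3 tested higher, and the 1 tested blood gene, Alas2, did not pass. The part of these shifts in the values of the members was not tested.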

How the data were processed

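Total RNA of 4 libraries was measured, 2 Het and 2 Nf1-KO. Per the labels' protocols, libraries were made with a TruSeq kit, and the submitters' processing notes name STAR 2.4.2a, DESeq2 and the build mm9. The authors deposited 1 value per gene and library, read from the values as RPKM. The authors also deposited a comparison table whose columns, per the file headers, hold a mean signal (counts divided by size factors), a log2 fold change, a test score, and a p-value with its adjusted value. The counting program, annotation and strandedness are not given in the sources used here.

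The highest-mean row per name was kept (32868 names, 33 rows named by a number left out). limma 3.58.1 in R 4.3.3 was fitted to log2(RPKM + 1), with a variance trend and no covariate, for genes of at least 0.5 RPKM in at least 2 libraries. Scaling between libraries used a trimmed mean of log ratios without weights (factors 0.969, 0.967, 1.03 and 1.03). The Benjamini-Hochberg adjustment covered all 10690 tested genes, two-sided, at a threshold of 0.05. The code was tested on simulated data in which a far smaller share of genes changed than passed here. That run therefore does not test the scaling under the conditions of this comparison. Gene lengths were checked by the mean count per RPKM and estimated depth, and group counts were taken from the mean count and fold change of the authors' deposited table. RPKM, means and SD in the text are as deposited unless called scaled. Depth was estimated from the steps of low values of short transcripts, and positions come from GENCODE M21 (GRCm38), not the authors' build. The named genes are all members, Nf1, and up to 2 called genes with the largest change per list. Gpi1, Hk2, Aldoa, Mdm2, Trp53, Epas1, Arnt, Akt2, Mlxip, Senp1, Alas2, Pgm3, Eif2s3y, Uty, Kdm5d, Xist, Adipoq, Plin1, Lep and Myh7 were added after their values were seen. A listed gene before the step is not reported here and was left out of its list. Members and lists were chosen with earlier results of these data known.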

Additional observations from a re-analysis of the deposited data

How the results depend on the processing

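Over 14 alternatives (13 for Pfkp), 114 of 125 member values kept their direction and their side of the threshold. All 28 counts of called genes stayed within 1.5 times. Of 85 values of shares and ratios 76 stayed within 1 SD, but for most of them this was fixed in advance. Leaving out 1 of 2 libraries cannot shift a group mean by more than this SD, and each member has only 1 row to sum. With the authors' counts per kilobase 8 values moved, 1 reversed, and only the Pfkl share stayed. Pfkm, Pfkfb1, Pfkfb4 and Tigar kept their calls in every alternative run, with log2 fold changes of -0.81 to -0.68, -1.90 to -1.75, -1.19 to -0.99 and -0.42 to -0.30. With no filter on low values, Pfkl (-0.34) and Pfkfb2 (-0.25) lost their calls, where more genes were tested, and Fbp2 turned to -0.0002. With values as deposited, Pfkfb3 (0.17) and Fbp2 (0.10) passed; Pfkfb3 also passed at 1 RPKM in every library (0.09). Leaving the 20 genes of highest mean out of the scaling gave -0.0147 for Fbp2. Without each library in turn, values ran from -0.2822 to -0.1894 for Pfkfb2, from -0.0499 to 0.1163 for Pfkp and from -0.0110 to 0.0361 for Fbp2, the negative ends of the latter pair without replicate 1 of Nf1-KO and of Het. For these changes the cause was not tested. The called genes were 2660 higher and 2712 lower, and with values as deposited 3760 and 1883. Same replicate numbers showed no pairing (correlation of same-numbered deviations 0.0506 across 4792 genes). With the replicate block no member changed its call, with log2 fold changes of -0.24 for Pfkfb2 and -0.78 for Pfkm, and 2594 genes were higher and 2637 lower. With the authors' counts per kilobase in place of RPKM, chosen after seeing the data, the Nf1-KO minus Het difference moved to -0.0692 and 0.0258 percentage points for the Pfkm and Pfkp shares, to -19.51, 3.198 and 14.07 for the Pfkfb1, Pfkfb2 and Pfkfb3 shares, and to 1.489, -4.132 and 30.98 for the ratios of Fbp2 to Pfkm, Pfkfb to phosphofructokinase and Tigar to Pfkfb. The Pfkfb4 share turned from -2.231 to 2.249. The lowest members are limited by depth: Pfkp had a mean of 184.3 normalized counts in the authors' deposited table, and Fbp1 a few reads per library.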
